A study of Homo sapiens with 12 samples.

Results

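The newly assembled transcripts of K562 cells, those that a transcript assembler put together from RNA-seq reads and listed beside the annotated genes, were described in 9 libraries. Members were taken as the features whose name starts with MSTRG and whose level was 1 or more in TPM, a share of each library's transcripts corrected for length and scaled to a fixed total, in at least 3 of the 9 libraries. Of 1084 newly assembled features in the list, 879 (81.1%) were members. They stood among 15144 features with such a level out of 59317 in all, the other 14265 being annotated features. Of the 58233 annotated features 24.5% had such a level. Assembled and annotated features entered the list by different routes, so these shares cannot be compared directly. What sets them apart was not tested.

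K562 is a human chronic myeloid leukemia cell line that carries the BCR-ABL1 fusion and can be driven towards erythroid or megakaryocytic fates. Pools stably infected with lentivirus carried the empty PLKO-vector (pLKO), a hairpin against DNMT3A (shDNMT3A) or a hairpin against RUNX1 (labelled shRunx1, here shRUNX1), with 3 libraries per group. A further 3 libraries of cells with the empty PLVX-vector (pLVX) have a feature list of their own and were used only for a comparison of levels. Total RNA was extracted after storage in TRIzol, and all groups share the same growth medium and the same parental line. Which hairpin of each gene was sequenced, and from how many infected pools, is not given in the sources used here. A knockdown thus cannot be read as the shared effect of several hairpins.

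MSTRG is the prefix that StringTie gives by default to a merged transcript locus. Such loci can be long noncoding RNAs, unannotated promoters or ends of known genes, transcribed repeats, or stretches of unspliced RNA. DNMT3A is a DNA methyltransferase that sets new methylation marks, and RUNX1 is a transcription factor of blood cells that binds DNA as a partner of CBFB. Loss of DNA methylation is known to allow transcription from sequence that is otherwise silent, repeats among it.

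The names of all features are limited to 8 characters in the values used here, so a member is denoted by its position in the list, counted from 1 at the first feature. No chromosome position, strand, exon structure or sequence was tied to a position, and neither DNMT3A nor RUNX1 could be read, so the knockdowns were not checked in the targeted genes. TPM is relative: the values of a library add up to 1000000, a gain in some features lowers all others, and read depth is unknown. In bulk RNA, fewer cells with a transcript and less of it per cell cannot be told apart.

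One control library stood apart. In pLKO replicate 1, 21046 of the 59317 features were above 0, against 22364 to 23473 in the other 8 libraries, and its 10 highest features held 18.9% of the total TPM against 10.9% to 16.8%. Of the 879 members, 598 (68.0%) had their lowest value of the 9 libraries there, against 69.8% of the annotated features. Members at 1 to 2 TPM in the mean stood in pLKO replicate 1 at a median of 0.265 of their mean in pLKO replicates 2 and 3, and annotated features of that level at 0.413. The gap between the kinds was present from 10 to 20 TPM as well, with 0.332 against 0.536. It was 0.396 against 0.625 at 20 to 50 TPM, over 18 members. At 50 to 100 TPM it was 0.343 against 0.722, over 13 members. The values were 0.815 and 0.885 at 100 TPM or more, a bin of only 5 members. The tests against pLKO are therefore given with and without this library. Its part in the results was not tested beyond that.

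Newly assembled transcripts were low in K562 cells, and a few were abundant. The median over members of the mean TPM was 1.91, with quartiles at 1.24 and 4.06, against a median of 13.2 with quartiles at 3.96 and 38.8 over the annotated features. Of the members, 698 (79.4%) lay under 5 TPM against 29.3% of annotated features, 76 (8.65%) reached 10 TPM against 56.8%, and 5 reached 100 TPM. The highest member, at position 59027, had a mean of 577.8 TPM.

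**Figure D1:**
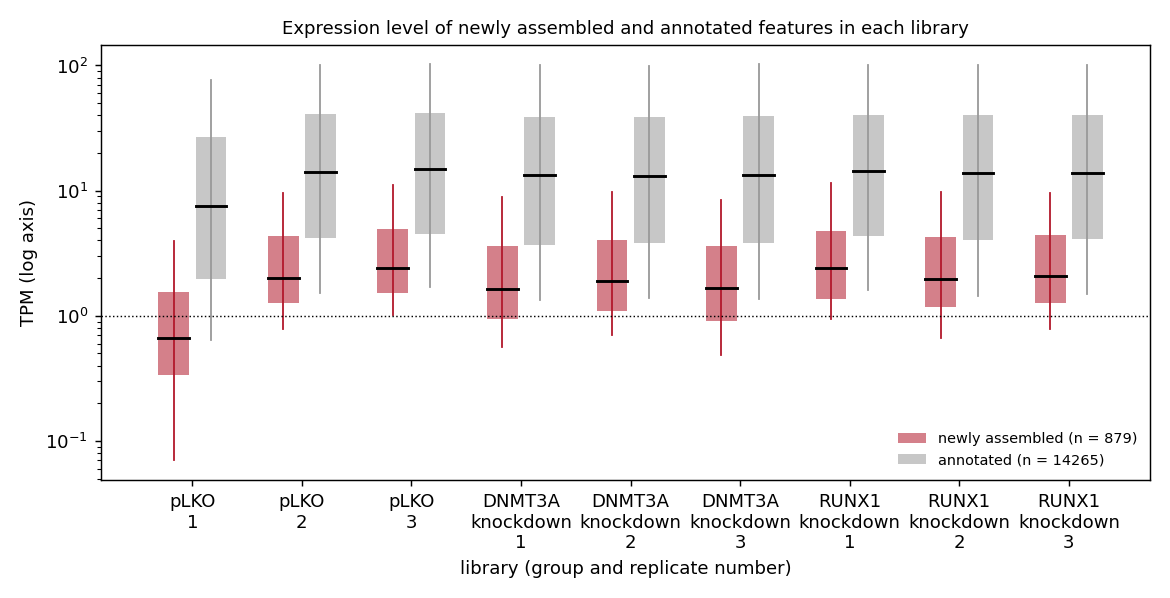
TPM (log axis) of the 879 newly assembled members (red) and the 14265 annotated features (grey) in each of the 9 libraries; boxes span the quartiles, black lines are medians, and thin lines run from the 10th to the 90th percentile. The members' median was 0.67 TPM in pLKO replicate 1 and lay between 1.65 and 2.43 TPM in the other 8 libraries.

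By library, the median TPM over members was 0.67, 2.02 and 2.43 in the 3 pLKO libraries. It was 1.65, 1.88 and 1.66 in the shDNMT3A libraries, and 2.42, 1.95 and 2.08 in the shRUNX1 libraries. The shDNMT3A libraries thus lay below pLKO replicates 2 and 3 and the shRUNX1 libraries among or near them, as the plot of levels by library shows. The annotated features had medians of 7.56, 14.07 and 14.76 TPM in the pLKO libraries. Theirs were 13.23, 13.19 and 13.26 TPM in the shDNMT3A libraries and 14.23, 13.79 and 13.92 TPM in the shRUNX1 libraries. There too the shDNMT3A libraries lay below pLKO replicates 2 and 3. The annotated features stood at a higher level than the members, so these medians do not compare features of like level.

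Detection followed the same order. Members at 1 TPM or more numbered 323, 752 and 792 in the pLKO libraries, 646, 700 and 633 in the shDNMT3A libraries, and 781, 707 and 743 in the shRUNX1 libraries. Of annotated features, 84.8%, 95.2% and 95.9% did so in pLKO and 93.8%, 94.15% and 93.5% in shDNMT3A. In shRUNX1 it was 95.7%, 94.5% and 95.1% of them. The shDNMT3A libraries thus lay below pLKO replicates 2 and 3 in both kinds, and most members stood nearer to 1 TPM than most annotated features. Members listed at 0 numbered 81 in pLKO replicate 1 and 20 to 42 in the others. Over all 9 libraries, 745 members (84.8%) were above 0 throughout, against 96.7% of annotated features, and 243 (27.65%) reached 1 TPM throughout, against 81.5%. A further 189 members fell short of 1 TPM in pLKO replicate 1 alone.

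Few members reached 1 TPM in 1 group alone, and the filter kept such a member only if all 3 libraries of that group did so. There were 729 members that reached 1 TPM in some library of all 3 groups, 133 in 2 groups and 17 (1.93%) in 1 group. Among annotated features 0.624% did so in 1 group. Of these 17, 8 reached 1 TPM only in pLKO, 2 only in shDNMT3A and 7 only in shRUNX1. No member was listed at 0 in all pLKO libraries while reaching 1 TPM in all 3 libraries of a knockdown. Of the 14265 annotated features, 4 did so in shDNMT3A and 3 in shRUNX1. Counts this small do not set members and annotated features apart.

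At the edge of the filter, 74 members reached 1 TPM in exactly 3 libraries, with a median over them of 0.958 TPM in the mean. The 53 features that did so in exactly 2 libraries, just outside, had a median of 0.684 TPM. Of the 205 newly assembled features left out, 17 were listed at 0 in all 9 libraries and 118 reached 1 TPM in 1 or 2 libraries.

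The abundant members made up much of what newly assembled transcripts contributed to the RNA of a library. Members as a whole held 0.4055%, 0.6467% and 0.7456% of total TPM in the pLKO libraries. They held 0.491%, 0.503% and 0.475% in the shDNMT3A libraries and 0.608%, 0.496% and 0.537% in the shRUNX1 libraries. The 5 highest members alone held 0.236%, 0.227% and 0.249% in pLKO, 0.119%, 0.1044% and 0.1055% in shDNMT3A, and 0.117%, 0.0676% and 0.0842% in shRUNX1. In each knockdown library their share was thus lower than in any of the pLKO libraries. The 5 were picked by mean TPM over all 9 libraries, so high pLKO values helped to pick them, and this order is a description only. Position 59044 had a mean of 113.0 TPM, with 697.8 TPM in pLKO replicate 1 and at most 99.9 TPM in any other library.

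No difference in the total share was detectable with 3 libraries per group. It was 0.599% ± 0.175 (SD, n = 3) in pLKO, 0.490% ± 0.0140 in shDNMT3A and 0.547% ± 0.0566 in shRUNX1. The difference from pLKO was -0.110 percentage points in shDNMT3A (exact two-sided permutation p = 0.4) and -0.0525 in shRUNX1 (p = 0.6 by the same permutation test), where 3 libraries against 3 cannot give a p below 0.1. Without pLKO replicate 1 the pLKO mean was 0.696% ± 0.0700 and the differences were -0.2065 and -0.1493 percentage points, each with an exact permutation p of 0.2, the smallest that 2 libraries against 3 allow. Both pLKO libraries then lay above all libraries of either knockdown, and without pLKO replicate 3 the difference for shRUNX1 turned to 0.0207.

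The sign of both differences rested on the 5 highest members. Without them the other 874 held 0.1695%, 0.4195% and 0.4967% in pLKO, 0.3716%, 0.3986% and 0.3695% in shDNMT3A, and 0.4906%, 0.4283% and 0.4525% in shRUNX1. The shDNMT3A libraries then lay 0.0180 percentage points above pLKO (exact permutation p = 1) and the shRUNX1 libraries 0.0952 above it (permutation p = 0.5). With pLKO replicate 1 left out as well, the differences were -0.0782 (permutation p = 0.2) and -0.00100 (permutation p = 1). Between the knockdowns, the 874 were 0.0772 percentage points higher in shRUNX1 than in shDNMT3A, with no overlap between the libraries (exact permutation p = 0.1, the smallest possible).

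**Figure D2:**
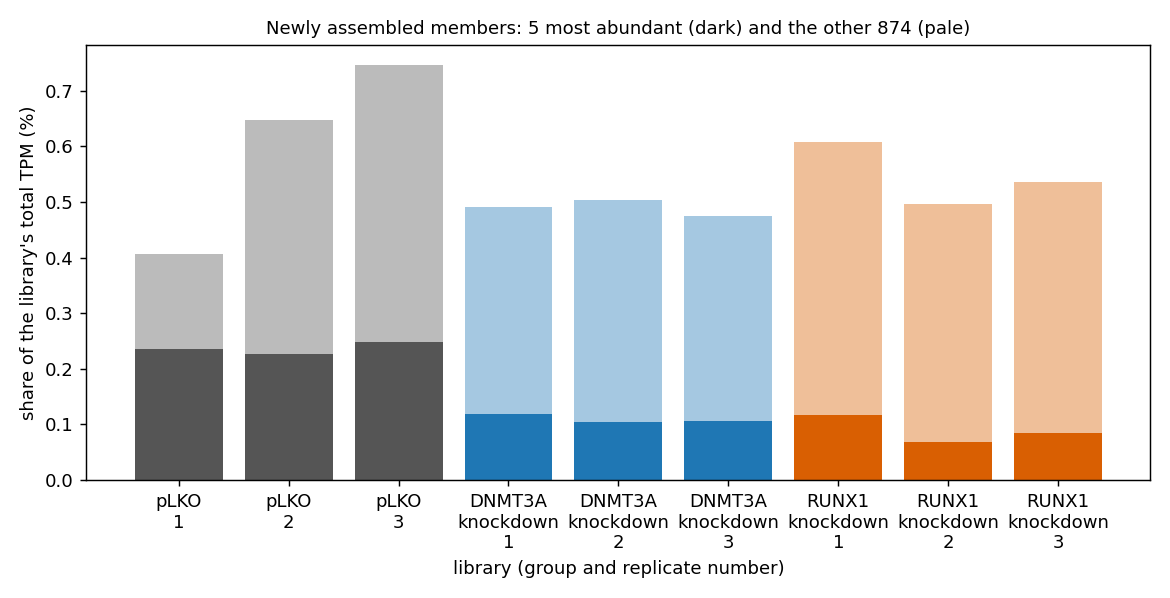
Share of each library's total TPM (%) held by the newly assembled members, with the 5 most abundant in the dark part of a bar and the other 874 in the pale part; 1 bar per library. The dark part is 0.227% to 0.249% in the pLKO libraries and 0.0676% to 0.119% in the knockdown libraries. The 5 were picked by mean TPM over all 9 libraries, pLKO included.

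Of the members' own TPM, the 5 highest, picked by a mean that includes pLKO, took 58.2% in pLKO replicate 1. They took 35.1% and 33.4% in the other pLKO libraries. They took 20.8% to 24.3% in shDNMT3A and 13.6% to 19.3% in shRUNX1. In the names as kept, 72 members begin with MSTRG.27, among them 4 of the 5 highest, and these 72 held 19.25% to 49.35% of the members' TPM.

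Position 59027, the highest member, fell in the RUNX1 knockdown. It stood at 674.7, 1090.1 and 1181 TPM in pLKO, 445.5, 384.8 and 351.5 TPM in shDNMT3A, and 533.6, 211.4 and 326.9 TPM in shRUNX1. All knockdown libraries lay below all pLKO libraries, and pLKO replicate 1 was the lowest of the controls. The log2 change, here and below on the log2(TPM + 1) scale and tested with limma with Benjamini-Hochberg adjustment over all 15144 features, was -1.52 in shRUNX1 (SE 0.315, adjusted p = 0.0289). In shDNMT3A it was -1.28 (adjusted p = 0.0627), which passed the test without pLKO replicate 1 (log2 change -1.53, adjusted p = 0.0110). The call in shRUNX1 was lost without pLKO replicate 2 or 3, without shRUNX1 replicate 2 or 3, or without any one shDNMT3A library, with adjusted p between 0.0546 and 0.109. It was also lost with no filter (adjusted p = 0.0773), in a fit on only the groups compared (adjusted p = 0.114) and with a replicate block (adjusted p = 0.0688), and without pLKO replicate 1 the change was -1.77 (adjusted p = 0.00623).

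Position 58496, the next in level, fell in both knockdowns. Its values were 578.7, 547.5 and 628.7 TPM in pLKO, 391.1, 330.9 and 429.8 TPM in shDNMT3A, and 327.8, 289.1 and 298.2 TPM in shRUNX1. The pLKO libraries, replicate 1 included, lay close together and above every knockdown library. The log2 change was -0.61 in shDNMT3A (SE 0.105, adjusted p = 0.0146) and -0.94 in shRUNX1 (adjusted p = 0.00183), with -0.62 and -0.94 without pLKO replicate 1. In shDNMT3A the call was lost without shDNMT3A replicate 1 (adjusted p = 0.0676) or 2 (adjusted p = 0.0541), and without pLKO replicate 3, where the change of -0.56 was under 1.5-fold. It was also lost with median-ratio scaling (adjusted p = 0.0708), without a trend of the variance (adjusted p = 0.0545), in a fit on only the groups compared (adjusted p = 0.0807), and with median-ratio scaling without pLKO replicate 1, where the change was -0.51.

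Positions 59042 and 59043, next to each other in the list, were lower in the knockdowns too. Position 59042 stood at 236.4, 371.5 and 357.2 TPM in pLKO, 163.5, 134.2 and 136.8 TPM in shDNMT3A, and 175.4, 74.6 and 118.3 TPM in shRUNX1. Position 59043 stood at 173.0, 202.4 and 222.1 TPM in pLKO, 133.2, 118.8 and 136.7 TPM in shDNMT3A, and 109.8, 101.2 and 99.0 TPM in shRUNX1. For both, no knockdown library reached the lowest pLKO library. Position 59043 fell in both knockdowns, with log2 changes of -0.61 (adjusted p = 0.0167) in shDNMT3A and -0.93 (adjusted p = 0.00232) in shRUNX1. Position 59042 fell in shRUNX1 by 1.44 on the log2 scale (adjusted p = 0.0237), and its change of -1.12 in shDNMT3A did not pass (adjusted p = 0.0695; 0.0136 without pLKO replicate 1). Leaving out pLKO replicate 1, the changes of position 59043 were -0.71 and -1.03, and that of position 59042 in shRUNX1 was -1.65.

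These 4 members formed pairs that kept their ratio from library to library. The TPM of position 59027 was 2.57 to 3.31 times that of position 59042 in all 9 libraries, and that of position 58496 was 2.71 to 3.34 times that of position 59043. The pairing was seen in the values and is given as a description. Reads from near-identical copies can be split between features by the counting, and whether these members share sequence was not tested.

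The fifth, position 59044, varied widely within groups. It stood at 697.8, 59.7 and 99.9 TPM in pLKO, 58.87, 75.01 and 0 TPM in shDNMT3A, and 25.65, 0 and 0 TPM in shRUNX1. One library, pLKO replicate 1, held most of it, and 3 knockdown libraries list it at 0. The shRUNX1 libraries all lay below the pLKO libraries, while shDNMT3A overlapped pLKO. The limma log2 change was -3.29 in shDNMT3A (adjusted p = 0.421) and -5.76 in shRUNX1 (adjusted p = 0.117), so no call was made. Without pLKO replicate 1 the adjusted p was 0.451 and 0.140.

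**Figure D3:**
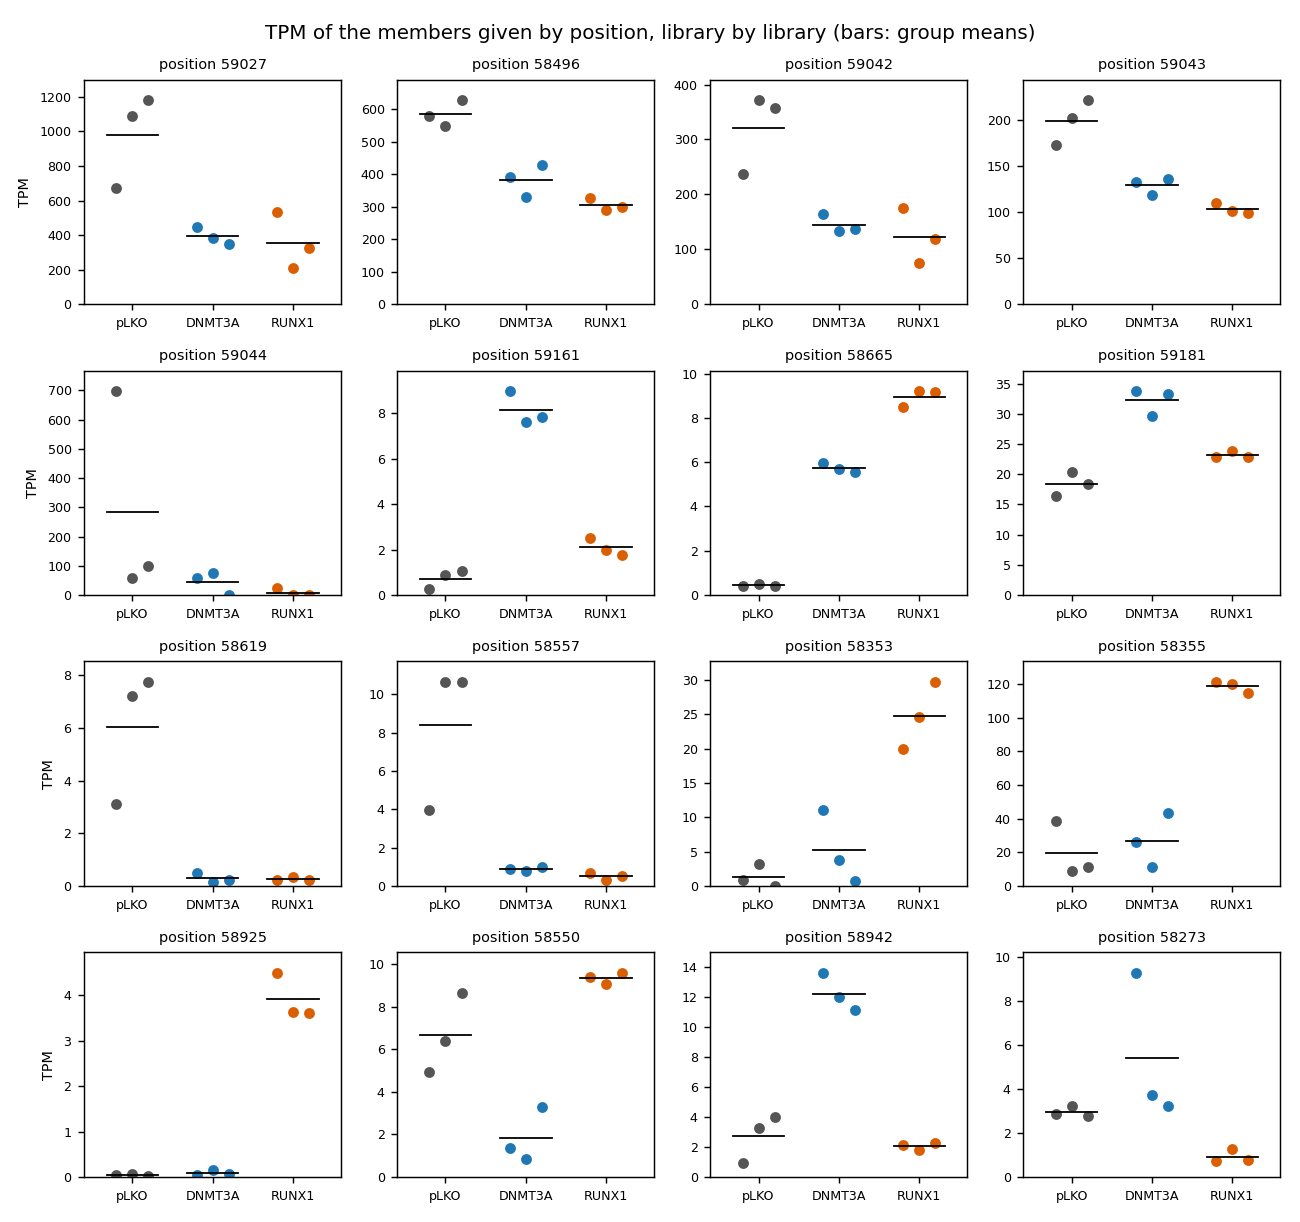
TPM (linear axes from 0) of the 16 members given by position; each point is 1 library (grey pLKO, blue shDNMT3A, orange shRUNX1, replicates 1 to 3 from left to right) and each bar a group mean. The panels of positions 59027, 58496, 59042 and 59043 show every knockdown library below every pLKO library, and that of position 59044 shows 1 pLKO library far above the rest.

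In the DNMT3A knockdown, 16 members (1.82%) rose and 10 (1.14%) fell, out of 879. Over all tested features, percent called was 1.86% higher and 1.21% lower, and annotated features weighted to the members' levels, as a mean over bins of mean TPM with each bin counted by its share of members, gave 2.12% and 1.19%. The members' counts were thus near the background in both directions. The log2 changes of those that rose ran from 0.78 to 2.44 with a median of 1.35, and of those that fell from -2.38 to -0.61. All 26 had groups that did not overlap; among all members 96 (10.9%) were higher without overlap against 17.8% of tested features, and 39 (4.44%) were lower without overlap against 5.5%. With pLKO replicate 1 left out, 97 of 879 were higher without overlap against 19.7% of tested features, and 372 (42.3%) were lower without overlap against 34.7%.

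Leaving out pLKO replicate 1 turned the balance of calls in the DNMT3A knockdown. Then 32 members (3.64%) rose and 107 (12.2%) fell, against 2.69% and 7.05% of tested features, and against 3.64% and 8.24% of annotated features weighted to the members' levels. The 16 and the 10 of the full set were all among them. Rises made up 61.5% of the members' calls with all libraries, 54.7% after median-ratio scaling, 53.6% after quantile normalization and 23.0% without pLKO replicate 1. Over all tested features the corresponding shares were 60.6%, 47.4%, 48.0% and 27.6%, so the balance moved in the same way there. The count of rises was also moved by other libraries. It was 4, 7 and 4 without shDNMT3A replicate 1, 2 and 3 (90, 104 and 90 over all tested features). Without shRUNX1 replicate 2 it was 10 (167 over all tested features). The count of falls was 2, 2 and 4 without shDNMT3A replicate 1, 2 and 3 (74, 80 and 81 over all tested features). It was 4 and 3 without pLKO replicate 2 and 3 (110 and 115), and 6 without shRUNX1 replicate 3 (128). All tested features gave 281 rises and 183 falls with all libraries, so the counts dropped there too.

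Among called members, position 59161 had the largest rise in the DNMT3A knockdown. It stood at 0.25, 0.87 and 1.05 TPM in pLKO, 8.97, 7.62 and 7.82 TPM in shDNMT3A, and 2.53, 2.00 and 1.77 TPM in shRUNX1. The shDNMT3A libraries lay far above both other groups, and their mean of 8.14 TPM was 11.2 times the pLKO mean. The log2 change was 2.44 (SE 0.229, adjusted p = 0.000835), and 2.22 without pLKO replicate 1. In shRUNX1 it was 0.87 (adjusted p = 0.0652), and without pLKO replicate 1 a change of 0.66 passed (adjusted p = 0.0149).

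Position 58665 rose in both knockdowns. Its values were 0.41, 0.50 and 0.42 TPM in pLKO, 5.94, 5.69 and 5.56 TPM in shDNMT3A, and 8.47, 9.21 and 9.17 TPM in shRUNX1. The 3 groups were tight and apart, and pLKO replicate 1 did not differ from its group. The mean was 12.9 times that of pLKO in shDNMT3A (log2 change 2.22, SE 0.161, adjusted p = 0.000221) and 20.2 times in shRUNX1 (log2 change 2.78, adjusted p = 0.000129). The log2 changes were 2.20 and 2.77 when pLKO replicate 1 was left out. The same 3 pLKO libraries serve both comparisons.

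Position 59181 was the most abundant member called as rising in the DNMT3A knockdown. It stood at 16.35, 20.32 and 18.45 TPM in pLKO, 33.78, 29.65 and 33.26 TPM in shDNMT3A, and 22.8, 23.8 and 22.8 TPM in shRUNX1. Both knockdowns lay above pLKO without overlap, shDNMT3A more so. The log2 change was 0.78 in shDNMT3A (adjusted p = 0.0114), a call that was lost without shDNMT3A replicate 1 (adjusted p = 0.0813) or 3 (adjusted p = 0.0685), with median-ratio scaling (adjusted p = 0.0578), in a fit on only the groups compared (adjusted p = 0.10) and with a replicate block (adjusted p = 0.0505). In shRUNX1 it was 0.32 (adjusted p = 0.193). The changes were 0.70 (adjusted p = 0.000718) and 0.24 (adjusted p = 0.0551) when pLKO replicate 1 was left out.

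Among called members, positions 58619 and 58557 had the largest falls in both knockdowns. Position 58619 stood at 3.11, 7.19 and 7.74 TPM in pLKO, 0.49, 0.16 and 0.22 TPM in shDNMT3A, and 0.24, 0.35 and 0.24 TPM in shRUNX1. Position 58557 stood at 3.95, 10.6 and 10.6 TPM in pLKO, 0.91, 0.79 and 0.97 TPM in shDNMT3A, and 0.70, 0.33 and 0.50 TPM in shRUNX1. Both went from several TPM in every control library to under 1 TPM in every knockdown library, and in both pLKO replicate 1 was the lowest control. For position 58619 the log2 change was -2.37 in shDNMT3A (SE 0.288, adjusted p = 0.00316) and -2.38 in shRUNX1 (adjusted p = 0.00271). For position 58557 it was -2.21 (adjusted p = 0.00706) and -2.54 (adjusted p = 0.00334), and without pLKO replicate 1 all 4 changes were larger, from -2.62 to -2.95.

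In the RUNX1 knockdown, 26 members (2.96%) rose and 14 (1.59%) fell. Over all tested features, percent called was 2.09% higher and 1.44% lower, and annotated features weighted to the members' levels gave 2.21% and 1.49%. The log2 changes of those that rose ran from 0.95 to 3.67 with a median of 1.53, and of those that fell from -2.54 to -0.89. Of the 26 that rose, 17 had a mean under 5 TPM, and of the 14 that fell, 6 had 10 TPM or more, 4 of them among the 5 highest members. All 40 had groups that did not overlap; among all members 155 (17.6%) were higher without overlap against 21.2% of tested features, and 41 (4.66%) were lower without overlap against 7.46%. With pLKO replicate 1 left out, 159 (18.1%) were higher without overlap against 22.6% of tested features, and 192 (21.8%) were lower without overlap against 28.6%.

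Without pLKO replicate 1, 39 members (4.44%) rose in the RUNX1 knockdown and 58 (6.60%) fell, against 3.02% and 4.79% of tested features. The annotated features weighted to the members' levels then gave 3.84% and 6.10%, and the 26 and 14 of the full set were all among the calls. Rises made up 65.0% of the members' calls with all libraries, 50.7% after median-ratio scaling, 50.6% after quantile normalization and 40.2% without pLKO replicate 1. Over all tested features the corresponding shares were 59.2%, 41.1%, 41.5% and 38.7%. The count of rises was 8, 11 and 8 without shRUNX1 replicate 1, 2 and 3 (117, 108 and 118 over all tested features). It was 14, 16 and 15 without shDNMT3A replicate 1, 2 and 3 (178, 195 and 180). The count of falls was 6 and 9 without pLKO replicate 2 and 3 (137 and 172 over all tested features). It was 6 and 6 without shRUNX1 replicate 2 and 3 (100 and 111), and 9 without shDNMT3A replicate 3 (158). All tested features gave 316 rises and 218 falls with all libraries, so the counts dropped there too.

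Among called members, position 58353 had the largest rise in the RUNX1 knockdown on the log2(TPM + 1) scale. It stood at 0.87, 3.24 and 0 TPM in pLKO, 11.01, 3.78 and 0.74 TPM in shDNMT3A, and 19.98, 24.55 and 29.69 TPM in shRUNX1. Only the shRUNX1 libraries were all high, while shDNMT3A overlapped pLKO. The mean of 24.7 TPM in shRUNX1 was 18.1 times that of pLKO, with a log2 change of 3.67 (SE 0.689, adjusted p = 0.0185), and 3.63 without pLKO replicate 1. The call was lost without any one shRUNX1 library, with adjusted p between 0.0615 and 0.0874, with a pseudocount of 0.1 TPM (adjusted p = 0.0529) and with no filter (adjusted p = 0.0548).

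Position 58355, close by in the list, was the most abundant member called as rising in the RUNX1 knockdown. It had the next largest rise among called members on the same scale. It stood at 38.6, 9.13 and 11.5 TPM in pLKO, 26.45, 11.43 and 43.25 TPM in shDNMT3A, and 121.4, 120.3 and 114.7 TPM in shRUNX1. The shRUNX1 libraries lay close together above all others, and pLKO replicate 1 was the highest control here. The log2 change was 2.81 (SE 0.544, adjusted p = 0.0218), and 3.41 without pLKO replicate 1 (adjusted p = 0.00129). It did not pass without pLKO replicate 2 or 3 or without any one shRUNX1 library (adjusted p from 0.0517 to 0.0891), nor with median-ratio scaling (adjusted p = 0.0554) or no filter (adjusted p = 0.0617).

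**Figure D4:**
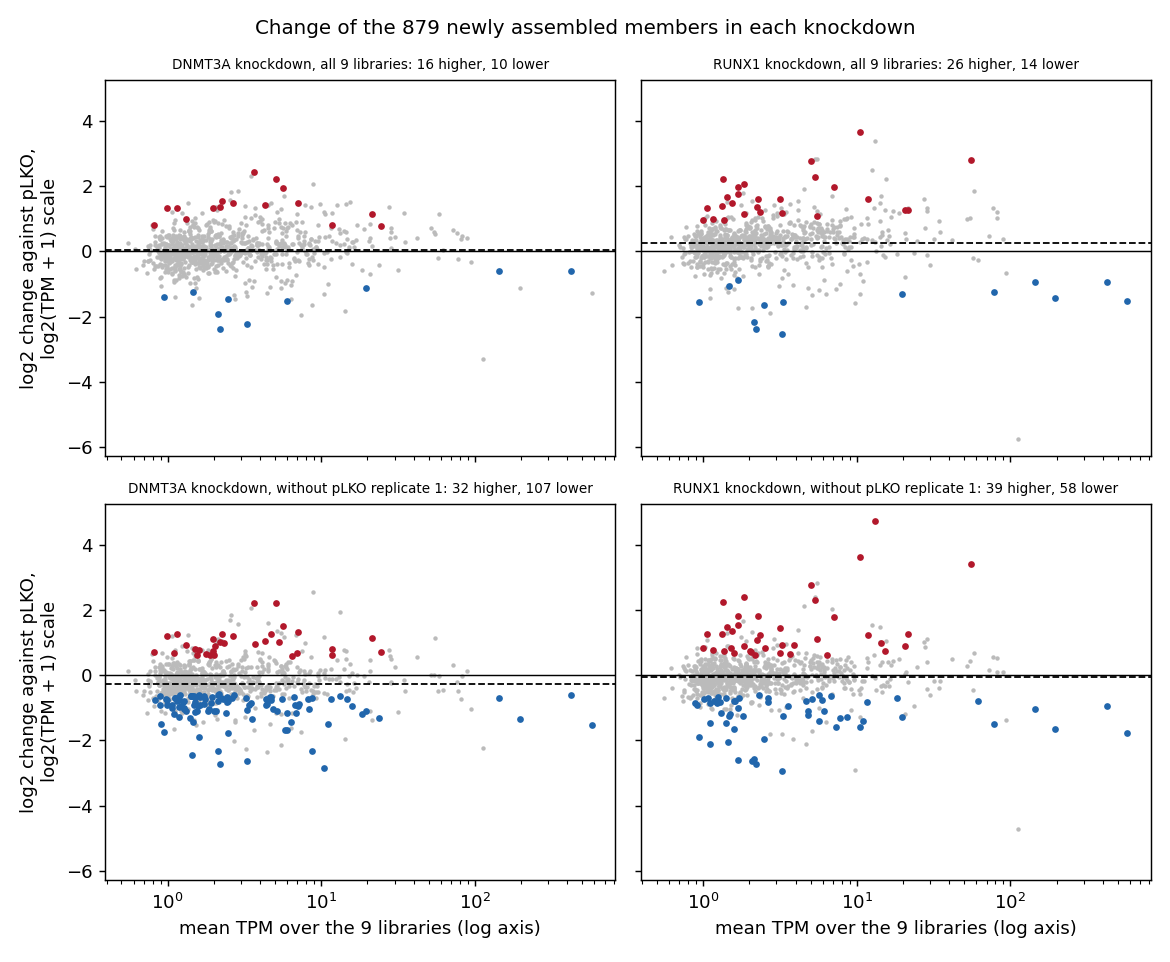
Log2 change against pLKO of each of the 879 members (log2(TPM + 1) scale) against its mean TPM (log axis), for both knockdowns with all 9 libraries (top) and without pLKO replicate 1 (bottom); red and blue points passed the test upwards and downwards, and the dashed line is the members' median. With all libraries 16 and 26 members rose and 10 and 14 fell; without pLKO replicate 1 the falls numbered 107 and 58.

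The members as a whole had a median log2 change near 0 in the DNMT3A knockdown with all libraries. It was 0.042, against 0.13 over all tested features and 0.086 over annotated features weighted to the members' levels. Without pLKO replicate 1 it was -0.26, against -0.081 and -0.14. Median-ratio scaling moved the median of all features to -0.021 and that of the members to -0.030, and quantile normalization gave -0.043 for the members, so the sign of this small median turned with the scaling and with 1 control library.

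In the RUNX1 knockdown the members' median log2 change was 0.27, against 0.20 over all tested features and 0.19 over annotated features weighted to the members' levels. Without pLKO replicate 1 it was -0.054, against -0.029 and -0.049. After median-ratio scaling it was 0.16, where the median of all features was -0.0012, and after quantile normalization 0.090. The members are not replicates of a condition, so these medians carry no test.

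The members' median change against pLKO on the log2(TPM + 1) scale differed with their level. The added 1 TPM shrinks a fold change more at low levels, so the bins are not on an equal footing. With a pseudocount of 0.1 TPM the median over all members in shRUNX1 was 0.48, against 0.27. How much of the order of the bins comes with the scale was not tested. With all libraries, the median log2 change in shRUNX1 was 0.12 for the 89 members under 1 TPM, 0.22 for the 370 at 1 to 2 TPM, 0.37 for the 239 at 2 to 5 TPM and 0.45 for the 40 at 10 to 20 TPM. The annotated features in these bins stood at 0.15, 0.16, 0.21 and 0.26. Without pLKO replicate 1 the members' medians in the same bins were -0.12, -0.078, -0.023 and -0.065, and in the bins of 5 to 10, 20 to 50 and 50 to 100 TPM they were 0.027, 0.061 and 0.15. A smaller and less even rise with level was thus left below 100 TPM. In shDNMT3A, the medians without that library were -0.29, -0.27, -0.28 and -0.11, against -0.15, -0.15, -0.17 and -0.093 for annotated features.

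**Figure D5:**
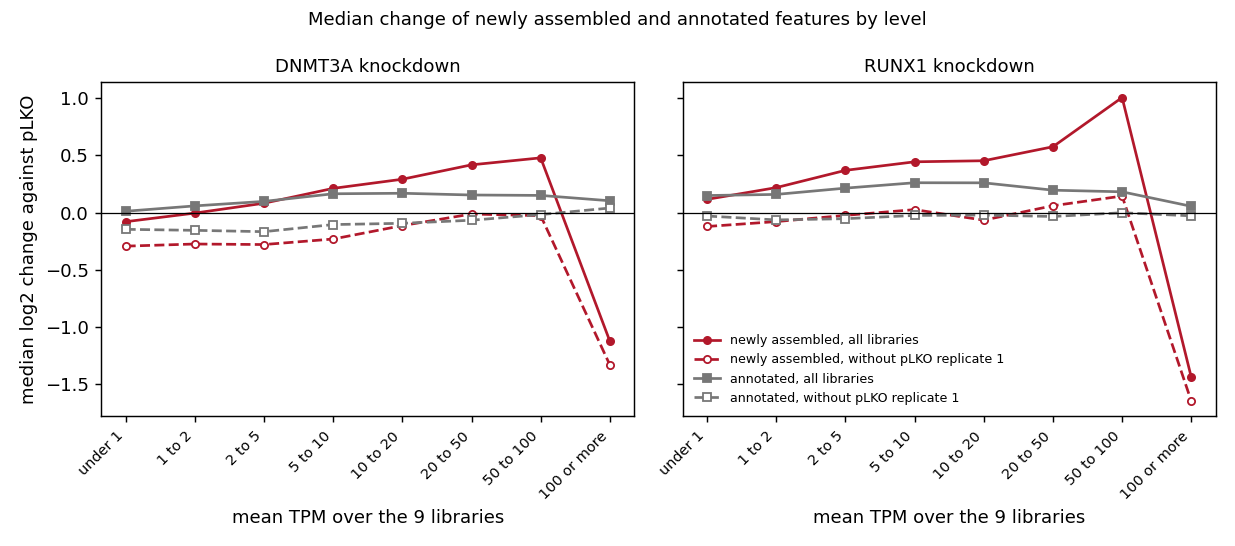
Median log2 change against pLKO (log2(TPM + 1) scale) by bin of mean TPM for newly assembled members (red circles) and annotated features (grey squares), with all 9 libraries (solid lines) and without pLKO replicate 1 (dashed lines, open symbols); the 3 highest bins hold 18, 13 and 5 members. In the bin of 100 TPM or more the members' medians are -1.12 with the DNMT3A hairpin and -1.44 with the RUNX1 hairpin, and those of the annotated features are 0.10 and 0.056. The bins were formed from means that include pLKO, so high pLKO values helped to place a member in that bin.

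The knockdowns were also compared with each other. In this comparison pLKO values enter the estimate of the spread and the filter that picks the tested features, but not the difference itself. Of the members, 4 (0.455%) were higher in shRUNX1 than in shDNMT3A and 6 (0.683%) were lower, against percent called of 0.515% and 0.627% over all tested features. The 6 lower members fell to 0 without any one of the 6 knockdown libraries. Over all tested features 15 to 26 lower ones were left there, against 95 with all libraries. The 4 higher members fell to 2 without shDNMT3A replicate 1, where 21 were left over all tested features, against 78. Leaving out pLKO replicate 1 kept the same tested features and changed only the estimate of the spread. Then 84 members (9.56%) were higher and 28 (3.19%) lower, against 4.56% and 2.4% of tested features. Annotated features weighted to the members' levels gave 5.16% and 3.39%. The median difference was 0.21 over the members, against 0.054 over all tested features and 0.095 over annotated features weighted to the members' levels. There were 614 members (69.85%) above 0 against 56.7% of annotated features, and the median stayed at 0.17 after median-ratio scaling and 0.11 after quantile normalization.

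Position 58925 had the largest difference upwards between the knockdowns among called members. It stood at 0.04, 0.07 and 0.02 TPM in pLKO, 0.05, 0.15 and 0.07 TPM in shDNMT3A, and 4.50, 3.64 and 3.61 TPM in shRUNX1. Its TPM was near 0 in all libraries other than the shRUNX1 libraries. The log2 difference between the knockdowns was 2.17 (SE 0.165, adjusted p = 0.000816), and the change against pLKO was 2.23 in shRUNX1 (adjusted p = 0.000241) and 0.062 in shDNMT3A (adjusted p = 0.889), with 2.23 and 0.060 without pLKO replicate 1.

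Position 58550 went the other way in the DNMT3A knockdown. It stood at 4.92, 6.41 and 8.65 TPM in pLKO, 1.35, 0.83 and 3.29 TPM in shDNMT3A, and 9.41, 9.09 and 9.60 TPM in shRUNX1. The shDNMT3A libraries were the lowest and the shRUNX1 libraries the highest. The log2 difference was 1.97 (adjusted p = 0.0212), with -1.51 against pLKO in shDNMT3A (adjusted p = 0.0340) and 0.47 in shRUNX1 (adjusted p = 0.422), and -1.68 and 0.29 without pLKO replicate 1. The difference lost its call without shDNMT3A replicate 1 or 2 or without any one shRUNX1 library, with adjusted p between 0.0945 and 0.115, and with no filter (adjusted p = 0.0532).

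Position 58942 was high in the DNMT3A knockdown. It stood at 0.93, 3.25 and 4.02 TPM in pLKO, 13.6, 11.96 and 11.09 TPM in shDNMT3A, and 2.15, 1.76 and 2.28 TPM in shRUNX1. The shDNMT3A libraries lay above all pLKO libraries, and the shRUNX1 libraries lay between pLKO replicate 1 and the other controls. The log2 difference between the knockdowns was -2.11 (SE 0.329, adjusted p = 0.0188) and the change in shDNMT3A was 1.93 (adjusted p = 0.0142). With pLKO replicate 1 left out, the change was 1.51 in shDNMT3A, and a change of -0.60 in shRUNX1 passed (adjusted p = 0.0169). Without any one of the 6 knockdown libraries the difference did not pass (adjusted p between 0.0848 and 0.110), nor with no filter (adjusted p = 0.0510) or a replicate block (adjusted p = 0.0645).

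Position 58273 rested on fewer libraries. It stood at 2.87, 3.24 and 2.79 TPM in pLKO, 9.28, 3.72 and 3.22 TPM in shDNMT3A, and 0.71, 1.27 and 0.75 TPM in shRUNX1. One shDNMT3A library was high, and the shRUNX1 libraries were lower than all others. The log2 difference was -1.64 (adjusted p = 0.0478), and -1.24 without shDNMT3A replicate 1 (adjusted p = 0.0985); the call was also lost without any one of the other knockdown libraries or without pLKO replicate 2 or 3, with adjusted p between 0.0630 and 0.220, with no filter (adjusted p = 0.116), with a filter on the mean (adjusted p = 0.0509), with a replicate block (adjusted p = 0.115) and without a trend of the variance (adjusted p = 0.0513).

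Some of the members called in a comparison stood side by side in the list. In the DNMT3A knockdown 8 of the 26 had a neighbour called in the same direction, in the RUNX1 knockdown 10 of 40, and between the knockdowns 4 of 10, and none had a neighbour called in the opposite direction. Among called annotated features, 16 of 438 (3.65%), 21 of 494 (4.25%) and 2 of 163 (1.23%) had such an annotated neighbour, in a stretch of the list where 24.5% of features were tested against 81.1% among newly assembled ones, so these shares cannot be compared directly. The pairs below were chosen after their values were seen, and whether neighbours in the list lie next to each other in the genome was not tested.

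Next to position 58925, position 58926 stood at 0.08, 0.46 and 0.51 TPM in pLKO, 0.38, 0.44 and 0.42 TPM in shDNMT3A, and 4.56, 3.87 and 4.40 TPM in shRUNX1. It too was high in shRUNX1 and in no other group, with a log2 change of 1.98 (adjusted p = 0.000881; 1.83 without pLKO replicate 1). Next to position 59161, position 59162 stood at 0.06, 0.34 and 0.34 TPM in pLKO, 1.83, 2.27 and 2.21 TPM in shDNMT3A, and 0.71, 0.55 and 0.65 TPM in shRUNX1. It had the order of its neighbour at a lower level, with a log2 change of 1.32 in shDNMT3A (adjusted p = 0.00478; 1.21 without pLKO replicate 1). Next to the highest member, position 59026 stood at 32.1, 34.6 and 28.4 TPM in pLKO, 13.9, 14.7 and 13.6 TPM in shDNMT3A, and 19.7, 9.22 and 10.2 TPM in shRUNX1. It fell by 1.11 on the log2 scale in shDNMT3A (adjusted p = 0.0434) and by 1.29 in shRUNX1 (adjusted p = 0.0207), with changes of -1.10 and -1.28 without pLKO replicate 1.

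How members varied between replicates, beside annotated features of like level, differed with the level. Over the 370 members at 1 to 2 TPM, the median SD of log2(TPM + 1) was 0.522 in pLKO, 0.186 in shDNMT3A and 0.173 in shRUNX1, against 0.428, 0.202 and 0.208 for annotated features, so that members varied less in both knockdowns. In pLKO replicates 2 and 3 alone it was 0.176 at this level for members and annotated features alike. The 89 members under 1 TPM also varied less in the knockdowns, with 0.217 and 0.233 against 0.244 and 0.240. At 2 to 5 TPM, it was 0.684 in pLKO, 0.169 in shDNMT3A and 0.226 in shRUNX1, against 0.497, 0.167 and 0.169 for annotated features of that level. In pLKO replicates 2 and 3 alone it was 0.1953 against 0.1475. At 10 to 20 TPM it was 0.966, 0.219 and 0.213 for members against 0.486, 0.103 and 0.0982 for annotated features. At 5 to 10 TPM it was 0.746, 0.210 and 0.205 for members against 0.511, 0.129 and 0.122 for annotated features. Members from 2 TPM up to 20 TPM were thus less repeatable than annotated features in all 3 groups. The gap was slight in shDNMT3A at 2 to 5 TPM. Across features, which are not independent, Pearson's r between libraries of 1 group was 0.770 to 0.869 over members and 0.961 to 0.987 over annotated features; the members span a narrower range of levels. Within 1 to 2 TPM the members' r was 0.303 to 0.387 in shDNMT3A and 0.317 to 0.484 in shRUNX1, against 0.263 to 0.354 and 0.233 to 0.343 for annotated features, and within 5 to 10 TPM it was 0.182 to 0.296 and 0.169 to 0.411, against 0.614 to 0.672 and 0.547 to 0.656.

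The pLVX libraries gave a like level for newly assembled transcripts, in a list that cannot be joined with the first. Of the 987 such features there, 454 (46.0%) reached 1 TPM in all 3 libraries, against 300 (27.7%) in pLKO, 524 (48.3%) in shDNMT3A and 623 (57.5%) in shRUNX1 out of 1084. Their median mean TPM was 2.885 in pLVX, 4.885 in pLKO, 2.92 in shDNMT3A and 3.07 in shRUNX1, where the pLKO value covers the fewest features. Newly assembled features, members or not, held 0.522% ± 0.0514 of total TPM in pLVX (SD, n = 3), with single libraries at 0.567%, 0.534% and 0.466%. The corresponding shares were 0.618% ± 0.181 in pLKO, 0.501% ± 0.0137 in shDNMT3A and 0.563% ± 0.0574 in shRUNX1, and all pLVX libraries lay between pLKO replicate 1, at 0.420%, and the other pLKO libraries, at 0.660% and 0.775%. The lists were assembled separately, so no test was made between them.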

How the data were processed

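RNA-seq of 12 K562 libraries was used. The authors deposited TPM for each feature, rounded to 2 decimals; per the labels' processing notes HISAT2 2.1.0, RSEM 1.3.1 and DESeq2 1.24.0 were used with GRCh38.p13, and the tool that assembled the MSTRG features is not given in the sources used here. The study's methods describe 3 biological replicates per group. Values of pLKO, shDNMT3A and shRUNX1 were joined by their position in the list. Because TPM holds no depth, no counting interval can be given, and TPM shifts with the highest features of a library.

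From the deposited TPM, log2(TPM + 1) was tested with limma 3.58.1 (R 4.3.3; empirical Bayes with a trend of the variance on the mean) over the 15144 features that reached 1 TPM in 3 or more of the 9 libraries. Features with a Benjamini-Hochberg adjusted p under 0.05 over all of them and at least 1.5-fold were called. Shares of total TPM were compared with exact two-sided permutation tests (scipy 1.17.1, Python 3.11.15). Annotated features of like level were those in the same bin of mean TPM, with edges at 1, 2, 5, 10, 20, 50 and 100 TPM. Members given by position were the 5 highest in mean TPM and, per comparison, the 2 largest rises and the 2 largest falls among called members without overlap between groups, plus the most abundant called member in each direction for each knockdown. The members, lists and tests were chosen with earlier results of these data known. The test was checked on simulated data. Alternatives were another pseudocount, other filters, scalings, thresholds and variance models, fits on the groups compared, a replicate block and leaving out each library; median-ratio scaling combined with leaving out pLKO replicate 1 and leaving out the 5 highest members were chosen after seeing the data.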

Additional observations from a re-analysis of the deposited data

Results flagged for a closer look

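The comparison of the knockdowns with each other singled out members whose change against pLKO differed between them, by a limma test of the difference itself. There were 4 members higher (0.455%, against 0.515% of all tested features) and 6 lower (0.683%, against 0.627%) in shRUNX1 than in shDNMT3A. The 6 fell to 0 without any one of the 6 knockdown libraries, where 15 to 26 were left over all tested features, against 95. The log2 difference, shRUNX1 minus shDNMT3A, was 2.17 for position 58925, 1.97 for position 58550, -2.11 for position 58942 and -1.64 for position 58273. Of these, the call of position 58925 held under all 18 alternatives run.

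Outside the filter, 2 newly assembled features reached 1 TPM in 2 knockdown libraries while listed at 0 in all 3 pLKO libraries. They entered no test.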

How the results depend on the processing

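Counts are given here as rises and falls of members in shDNMT3A, rises and falls in shRUNX1, and members higher and lower in shRUNX1 than in shDNMT3A; with all libraries they were 16, 10, 26, 14, 4 and 6, against 281, 183, 316, 218, 78 and 95 over all tested features. A fit on only the groups compared gave 2, 2, 10, 5, 85 and 31 (48, 55, 82, 89, 693 and 365 over all features). Median-ratio scaling gave 35, 29, 37, 36, 12 and 16 (408, 452, 394, 565, 209 and 244), and quantile normalization 45, 39, 45, 44, 17 and 24 (454, 492, 465, 656, 253 and 344). Median-ratio scaling without pLKO replicate 1 gave 38 and 84 for shDNMT3A and 43 and 54 for shRUNX1 (568, 794, 511 and 644). At an unadjusted p under 0.05 the counts were 74, 36, 111, 39, 66 and 32 (898, 427, 1196, 440, 523 and 374). A pseudocount of 0.1 TPM left 17 rises in shRUNX1 (272 over all features). Without a filter 11 rises were left there and 2 lower members between the knockdowns (193 and 64). Leaving out each library in turn gave 4 to 32 rises and 2 to 107 falls in shDNMT3A (90 to 407 and 74 to 1068 over all features). It gave 8 to 39 rises and 6 to 58 falls in shRUNX1 (108 to 457 and 100 to 725). Between the knockdowns it gave 2 to 84 higher and 0 to 28 lower members (21 to 691 and 15 to 364). The highest of each was without pLKO replicate 1. The 0 lower members came without any one of the 6 knockdown libraries. The members' median log2 change ran from -0.26 to 0.23 in shDNMT3A and from -0.054 to 0.46 in shRUNX1 when each library was left out. It was 0.15 and 0.48 with a pseudocount of 0.1 TPM, -0.030 and 0.16 with median-ratio scaling, and -0.043 and 0.090 with quantile normalization. The difference in share of total TPM turned to 0.0180 for shDNMT3A and 0.0952 for shRUNX1 without the 5 highest members, and for shRUNX1 it ran from -0.149 to 0.0207 when each library was left out, the latter without pLKO replicate 3. The causes of these moves were not tested.

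A replicate block gave 10, 5, 15, 7, 4 and 0 calls (152, 111, 168, 139, 33 and 24 over all features). Libraries that share a number across groups showed no common deviation (mean correlation of their deviations -0.00168, from -0.106 to 0.0848, against 0.000933 for other numbers), so the numbers are taken as names only. None of the 13 members given by position for a call in a comparison changed direction there under any alternative run; the others given by position were not rerun under all alternatives. The precision of single values is limited by unknown read depth, by 3 libraries per group and by 1 control library that stands apart.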
